A study of Mus musculus with 7 samples.

Results

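Hemoglobin is assembled from alpha-like and beta-like globin chains, each holding a heme, and the red cell precursor switches from embryonic to adult globin genes during gestation. Red cells arise first in the yolk sac, then in the fetal liver, and after birth in bone marrow and, in mice, spleen. As a precursor matures it fills with globin mRNA, builds its membrane skeleton and loses its nucleus, and the young cell that enters the blood still carries RNA for a while. The adrenal is not known as a blood-forming organ, but whole glands contain blood vessels and blood. Whether the glands were perfused is not given in the sources used here.

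The 9 genes described here are 7 globin genes, the heme synthesis enzyme gene Alas2 and the membrane anion exchanger gene Slc4a1, out of 35976 gene symbols in the deposited table. They were chosen by name, with earlier results of these data known. Hba-a1 and Hba-a2 encode adult alpha globin, Hbb-bs and Hbb-bt encode the adult beta globin of the haplotype carried by C57BL/6 mice, and Hba-x, Hbb-y and Hbb-bh1 are embryonic globin genes. Alas2 catalyses the first step of heme synthesis in red cell precursors, and Slc4a1 encodes band 3, the most abundant membrane protein of the red cell. Of the 9, 6 reached a mean level of 10 normalized counts and entered the tests, and Hba-x, Hbb-y and Hbb-bh1 did not. A normalized count is a read count divided by a size factor of its library.

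RNA from whole adrenal glands of C57BL/6J mice was sequenced in 7 libraries, each made from 1 pool of glands with no treatment and no transgene named. The pools were 40 glands from embryos at E18.5 (sex not determined), 16 glands from male and 22 from female mice on postnatal day 1 (P1), 6 from each sex at 2 weeks and 4 from each sex at 12 weeks. Each group is therefore 1 library, so the library of the other sex stood in as the second of an age, and a p-value here measures only the spread between these pools. The libraries held between 15184210 and 23551289 reads in genes. The adrenal identity of the samples was visible in all 7 libraries: the 8 cortex markers summed to 249660 to 1120906 normalized counts and the 6 chromaffin cell markers to 39957 to 123171. Markers of other tissues were present as well. At P1 the 9 hepatocyte markers summed to 405723 (male) and 279057 (labelled female), above the cortex markers there (377955 and 249660). At E18.5 they summed to 320328, below the cortex markers (540239).

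One library did not match its label cleanly. In the P1 library labelled female, 4 Y-linked genes stood at a median of 21% of their level in the P1 male library, against 0.0609% in the 2-week and 0.0132% in the 12-week female library, relative to the male one. The 2-week libraries also stood apart from each other in markers of other cells, as given below. Counts of called genes are followed by the counts without single libraries where these moved them most. Each such fit kept 1 residual degree of freedom, and the number of all genes called also differed widely between these fits, as given further below. A call lost in such a fit is therefore not by itself a result about the genes named.

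The coding sequences show why the adult globin genes are described both singly and in pairs. Below, a stretch of 60 bases holding the 1 differing base is given for each gene, in the GRCm38 build and on the gene's own strand, with that base in capitals. Positions count from 1 at the first base of the start codon.
Hba-a1 (chr11:32284313-32284372, plus strand): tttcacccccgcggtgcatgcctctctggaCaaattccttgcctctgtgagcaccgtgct
Hba-a2 (chr11:32297130-32297189, plus strand): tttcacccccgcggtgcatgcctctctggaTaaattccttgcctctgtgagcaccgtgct
Hbb-bs (chr7:103826668-103826727, minus strand): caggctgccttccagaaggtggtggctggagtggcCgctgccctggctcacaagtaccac
Hbb-bt (chr7:103812659-103812718, minus strand): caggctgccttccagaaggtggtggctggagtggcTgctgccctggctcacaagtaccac

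Hba-a1 and Hba-a2 differed at 1 of 426 coding bases, C381T, and Hbb-bs and Hbb-bt at 1 of 441, C417T, each the last base of a codon. Of the 50-base windows of the annotated transcript, UTRs included, 67.5% of those of Hba-a1 occur in Hba-a2 and 65.8% of those of Hbb-bs occur in Hbb-bt. In the other direction, 86.9% of those of Hba-a2 occur in Hba-a1 and 58.3% of those of Hbb-bt occur in Hbb-bs. How the counting treated reads that match both genes is not given in the sources used here, so the split of reads within a pair is uncertain, and the level of a pair is too if such reads were left out. Alas2 and Slc4a1 have no such partner here. The embryonic beta genes share no 50-base coding window with the adult ones, and Hbb-bs and Hbb-y are 74.4% identical base by base.

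Upstream of the start site the adult and embryonic genes share short motifs known from globin promoters. One adult and one embryonic gene of each cluster are shown, as the 120 bases before the RefSeq start (GRCm38.p6) on the gene's strand, with matches to the searched motifs in capitals.
Hba-a2 (chr11:32296372-32296491, plus strand): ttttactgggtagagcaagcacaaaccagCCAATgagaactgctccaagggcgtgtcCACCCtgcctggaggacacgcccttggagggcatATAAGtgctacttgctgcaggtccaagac
Hba-x (chr11:32276480-32276599, plus strand): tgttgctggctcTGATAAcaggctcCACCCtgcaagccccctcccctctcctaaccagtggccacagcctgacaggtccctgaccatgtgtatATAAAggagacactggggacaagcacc
Hbb-bs (chr7:103827929-103828048, minus strand): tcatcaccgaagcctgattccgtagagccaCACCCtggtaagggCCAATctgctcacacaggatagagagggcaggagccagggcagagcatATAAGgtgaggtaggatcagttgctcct
Hbb-y (chr7:103853208-103853327, minus strand): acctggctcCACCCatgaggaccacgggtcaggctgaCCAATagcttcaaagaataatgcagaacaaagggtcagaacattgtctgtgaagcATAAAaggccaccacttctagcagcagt

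The motifs searched were CACCC and CCAAT on both strands, the GATA motif (written AGATAA or else AGATAG, or with an initial T as TGATAA or else TGATAG) on both strands, and ATAAA or ATAAG beginning 40 to 20 bases before the start on the gene's strand. RefSeq windows were matched for 7 of the 9 genes, and Hbb-bh1 and Slc4a1 were not matched. CACCC occurred in 7 of the 7, against 31.7% of all 32851 windows of that length. CCAAT occurred in 5 of 7, against 21.3%, the TATA-type letters in 6 of 7, against 6.19%, and a GATA motif in 2 of 7, against 12.8%. The window of Hba-a2 shares a run of 117 identical bases with that of Hba-a1, whereas the longest run shared by Hbb-bs and Hbb-bt is 14 bases. A match describes letters, not binding.

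Adult globin RNA was most abundant before birth and lower in every later library. Hbb-bs, the more abundant adult beta globin gene, stood at 66414 normalized counts at E18.5, at 40312 in the P1 male library and at 36777 in the P1 library labelled female. It stood at 6338 and 16276 in the 2-week male and female libraries, and at 9907 and 3761 in the 12-week male and female libraries. Its highest library was thus 17.7 times its lowest, and at 2 weeks and 12 weeks the order of the sexes was opposite.

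Hba-a1, an adult alpha globin gene, stood at 17087 normalized counts at E18.5, 8832 (male) and 9087 (labelled female) at P1, 1108 and 3002 at 2 weeks, and 1415 and 729 at 12 weeks. Its neighbour Hba-a2 stood at 10487 at E18.5, 3943 and 2747 at P1, 454 and 1149 at 2 weeks, and 632 and 432 at 12 weeks. Hbb-bt, the second adult beta gene, stood at 10407 at E18.5, 3897 and 4779 at P1, 447 and 1419 at 2 weeks, and 612 and 325 at 12 weeks. For these 4 adult globin genes E18.5 was the highest library, both P1 libraries came next, and the 12-week female library was the lowest.

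Alas2 followed the globin genes closely. It stood at 5070 normalized counts at E18.5, 2397 and 2918 at P1, 434 and 1142 at 2 weeks, and 542 and 216 at 12 weeks, in the order male then female at each postnatal age. Slc4a1 took another course, with 5217 at E18.5, 4340 and 4257 at P1, 161 and 2282 at 2 weeks, and 50.3 and 11.3 at 12 weeks. The 12-week values of Slc4a1 rest on 36 reads in the male and 10 reads in the female library. From its highest to its lowest library Slc4a1 spanned 461-fold, against 17.7- to 32-fold for the adult globin genes and 23.5-fold for Alas2.

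**Figure D1:**
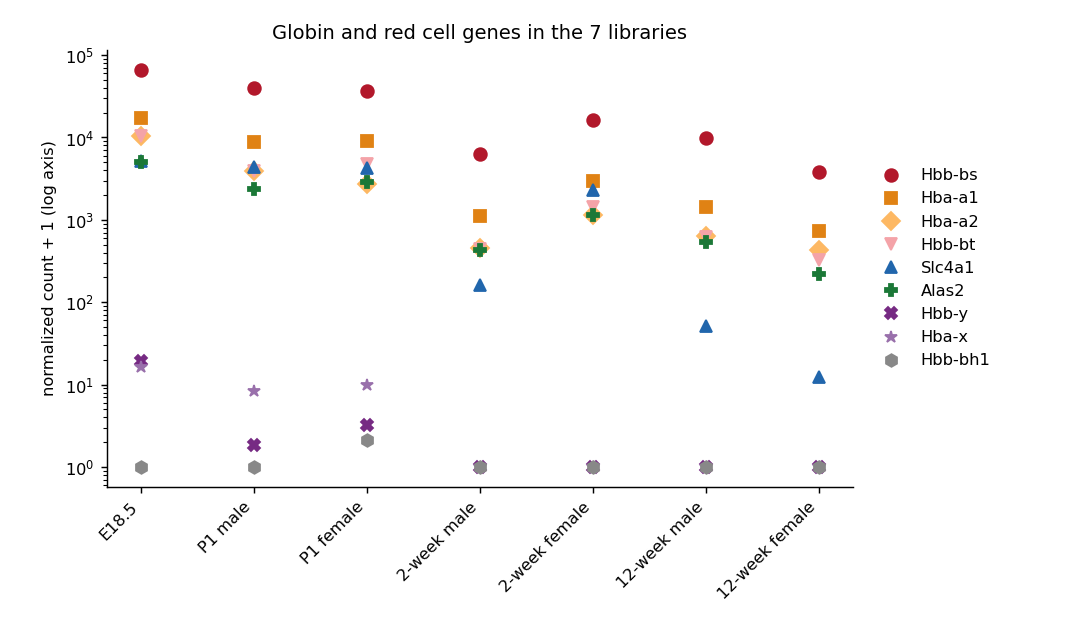
Each point is the normalized count plus 1 (log axis) of 1 gene in 1 library, with the 7 libraries in order of age along the horizontal axis and 1 library per group, so there are no error bars. The adult globin genes and Alas2 run in parallel, Slc4a1 drops from 2282 in the 2-week female library to 50.3 and 11.3 at 12 weeks, and the embryonic globin genes lie at the bottom.

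Embryonic globin RNA was close to the detection limit. Hbb-y, the embryonic beta-like epsilon gene, had 22 reads at E18.5, 1 in the P1 male library, 2 in the P1 library labelled female, and 0 in the 4 later libraries. Hba-x, the embryonic alpha-like zeta gene, had 18 reads at E18.5, 9 and 8 at P1, and 0 in the later libraries. Hbb-bh1, which is expressed with Hbb-y in yolk sac red cells, had 1 read, in the P1 library labelled female, and none elsewhere. Together the embryonic genes made up 0.0322% (95% Clopper-Pearson interval 0.023 to 0.0438) of the reads of the 7 globin genes at E18.5, 0.0144% (0.00689 to 0.0264) in the P1 male library and 0.0227% (0.0114 to 0.0407) in the P1 library labelled female. In the later libraries 0 reads allow a share of up to 0.032% (2-week male), 0.0121% (2-week female), 0.0334% (12-week male) and 0.0647% (12-week female), taking 3 reads as the limit. Against P1, a change in the embryonic share was therefore not detectable at this depth in any of the 4 later libraries, and against E18.5 only the limit of the 2-week female library lay below the interval. Counting error is all that these intervals and limits cover, because the reads carry no molecular identifiers and are not independent molecules.

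From E18.5 to P1, the ratio of Hbb-y rested on 22 reads against 1 in the P1 male library and 2 in the P1 library labelled female. Its value was 22.6 times lower with a counting interval of 3.65 to 932 in the first and 8.37 times lower with an interval of 2.06 to 73.5 in the second, and it came to 7.53 and 5.58 times lower when the P1 levels were set to the floor of 3 reads. Hba-x was 2.05 times lower (0.876 to 5.19) and 1.71 times lower (0.709 to 4.55), and both intervals include equal levels. These ratios compare single libraries, with no test.

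Compared per kilobase of coding sequence, Hbb-bs was the highest of the genes at E18.5 with 150600 normalized counts per kilobase, followed by Hba-a1 with 40111, Hba-a2 with 24618 and Hbb-bt with 23598. Alas2 reached 2879 and Slc4a1 1872 on that scale, and Hbb-y 41.9 and Hba-x 32.3. In the 12-week female library Hbb-bs stood at 8528, Alas2 at 123 and Slc4a1 at 4.06 per kilobase. Alas2 was thus above Slc4a1 on this scale in both libraries. At P1 the order was not shared, with Slc4a1 (1557) above Alas2 (1361) in the male library and below it (1528 against 1657) in the one labelled female. All globin reads together were 0.543% of the reads assigned to genes at E18.5, 0.296 and 0.262% at P1, 0.0446 and 0.112% at 2 weeks, and 0.0592 and 0.024% at 12 weeks.

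Ratios within a library do not depend on the size factors. Alas2 kept to a narrow range against Hbb-bs, at 7.63 reads per 100 Hbb-bs reads at E18.5, 5.95 and 7.94 at P1, 6.85 and 7.01 at 2 weeks, and 5.48 and 5.75 at 12 weeks. This ratio still varied beyond counting error, with intervals of 5.73 to 6.17 in the P1 male library and 7.62 to 8.26 in the P1 library labelled female. Slc4a1 varied far more against Alas2. It stood at 103 reads per 100 Alas2 reads at E18.5 (counting interval 99.3 to 107), at 181 (173 to 190) and 146 (139 to 153) at P1, and at 200 (187 to 214) in the 2-week female library. In the 2-week male library the ratio was 37.1 (31.1 to 44.1), and at 12 weeks it was 9.28 (6.4 to 13.1) in the male and 5.24 (2.47 to 9.84) in the female library. The 2-week male library and both 12-week libraries thus lay below the other 4, with no overlap of the counting intervals between these sets.

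The share of each pair also varied, within the uncertainty of how its reads were split. Hbb-bt made up 13.5% of the adult beta reads at E18.5 (13.3 to 13.8), 8.82 and 11.5% at P1, 6.59 and 8.02% at 2 weeks, and 5.82 and 7.95% at 12 weeks. It was highest at E18.5 and, at each postnatal age, lower in the male library. Hba-a2 made up 38% of the adult alpha reads at E18.5 (37.5 to 38.6), 30.9 and 23.2% at P1, 29.1 and 27.7% at 2 weeks, and 30.9 and 37.2% at 12 weeks (34.3 to 40.3 in the female), without a shared direction. Summed over each pair, alpha reads per 100 beta reads were 35.9 at E18.5, 28.9 and 28.5 at P1, 23 and 23.5 at 2 weeks, and 19.5 and 28.4 at 12 weeks. Between the sexes the counting intervals of this summed ratio overlapped at P1 and at 2 weeks, and at 12 weeks the male interval (18.4 to 20.6) lay below the female one (26.5 to 30.5).

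**Figure D2:**
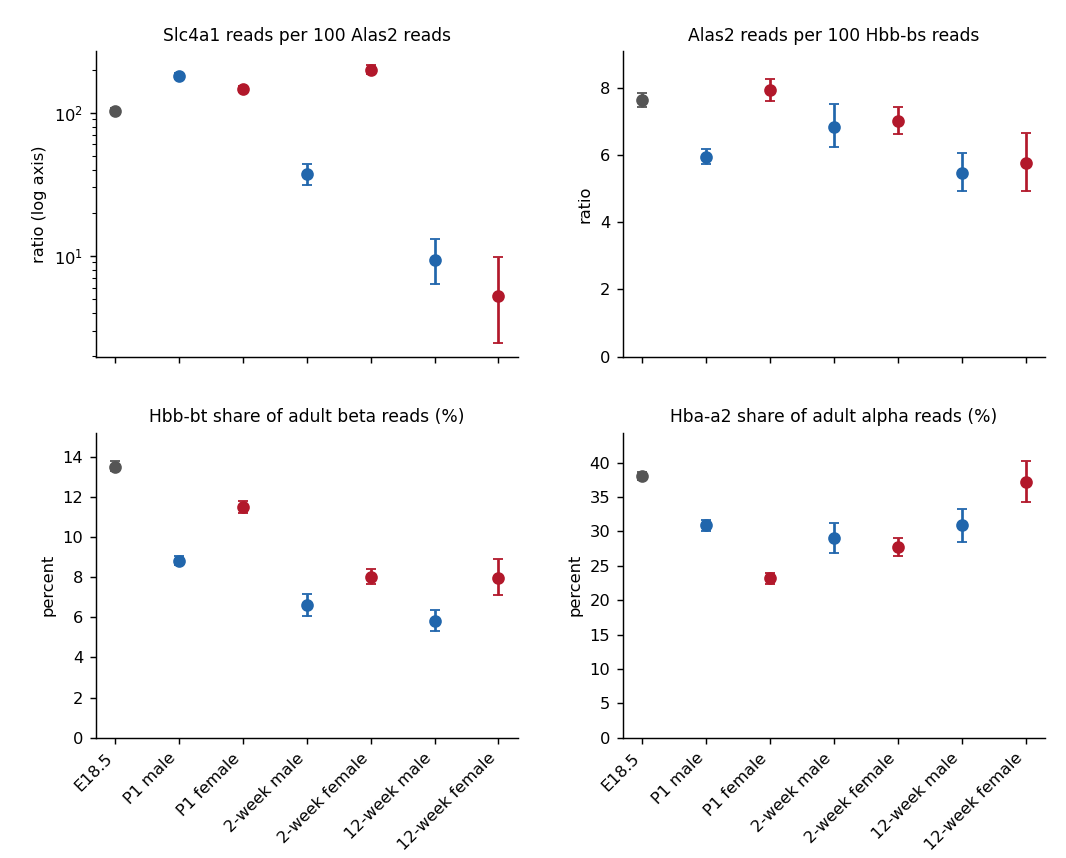
The 4 panels give, for each library, Slc4a1 reads per 100 Alas2 reads (log axis), Alas2 reads per 100 Hbb-bs reads, the percent of adult beta reads on Hbb-bt and the percent of adult alpha reads on Hba-a2. Points are single libraries (grey E18.5, blue male, red labelled female) and bars are exact 95% counting intervals. The ratio of Slc4a1 to Alas2 drops from 103 at E18.5 to 9.28 and 5.24 at 12 weeks, while Alas2 to Hbb-bs stays between 5.48 and 7.94.

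The first comparison concerns the days around birth, E18.5 against P1. All 6 tested genes were lower in both P1 libraries than at E18.5, but only Hba-a2 and Hbb-bt were at least 2-fold lower in both, 2 of 6, where 2.24% of all 16720 genes tested were. Hba-a2 was 2.66 times lower (counting interval 2.57 to 2.75) in the P1 male library and 3.82 times lower (3.66 to 3.99) in the one labelled female. Hbb-bt was 2.67 and 2.18 times lower, Alas2 2.12 and 1.74 times, Hba-a1 1.93 and 1.88 times, and Hbb-bs 1.65 and 1.81 times. Slc4a1 differed least, at 1.2 times (1.16 to 1.25) and 1.23 times (1.18 to 1.28) lower. Which of the adult globin genes passed the 2-fold limit may depend on the split of reads within each pair, which is uncertain. These are differences between single libraries, with no replicate check.

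The second comparison runs from P1 to 2 weeks, over both sexes, with limma on log2(normalized count + 1). Of the 6 tested genes, 3 fell at an adjusted p under 0.05 (limma, Benjamini-Hochberg over all genes), while 10.5% of all genes were called lower and 5.89% higher. Hba-a1 fell by 2.30 on the log2 scale (standard error 0.49, adjusted p = 0.0255, limma), Hba-a2 fell by 2.19 (0.45, 0.0221) and Hbb-bt fell by 2.44 (0.52, 0.0261). Hbb-bs, with a log2 difference of -1.92 (adjusted p = 0.0644), Alas2, with -1.91 (0.0631), and Slc4a1, with -2.82 (0.155), did not pass. The median of the 6 genes was -2.24, against 0.00 over all genes tested.

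The size of this step differed between the sexes' libraries, a difference that was not tested with 1 library per sex and age. Slc4a1 was 27 times lower at 2 weeks than at P1 in the male libraries (counting interval 23.2 to 31.4) and 1.87 times lower (1.77 to 1.96) in those labelled female. Hbb-bs was 6.36 and 2.26 times lower, and Alas2 5.52 and 2.56 times lower. None of the 6 genes was called without the P1 male, the P1 labelled female or the 2-week male library, and 6 were called without the 2-week female, the 12-week male or the 12-week female library. Over all genes, too, far fewer were called without the P1 male, the P1 labelled female or the 2-week male library than in the full fit. In bulk tissue, fewer cells of a type and less RNA per cell cannot be told apart.

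From 2 weeks to 12 weeks only Slc4a1 was called, 1 of 6, where 9.89% of all genes were called lower and 5.4% higher. It fell by 4.60 on the log2 scale (standard error 1.18, adjusted p = 0.0462, limma), and the call was lost with edgeR (adjusted p = 0.0618). It was also lost without the P1 male library (0.141), the P1 library labelled female (0.141) or the 2-week female library (0.151, with a log2 difference of -2.17). Slc4a1 was 3.2 times lower at 12 weeks in the male (2.23 to 4.71) and 202 times lower in the female libraries (110 to 421).

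Over that step the adult globin genes and Alas2 were higher at 12 weeks in the male and lower in the female library. Hbb-bs was 1.56 times higher in the 12-week than in the 2-week male library (1.51 to 1.62), and 4.33 times lower in the female library (4.17 to 4.49). Hba-a1 was 1.28 times higher in the male (1.17 to 1.39) and 4.12 times lower in the female (3.79 to 4.49), and Alas2 1.25 times higher (1.09 to 1.43) and 5.28 times lower (4.53 to 6.18). In the fit over both sexes none of these genes passed, with log2 differences of -0.47 (Hba-a2) to -1.04 (Alas2). Without the 12-week male library, Hba-a1, Hbb-bs, Hbb-bt and Alas2 were called as well, 5 in all, and without the 2-week male library Hba-a2 was called beside Slc4a1.

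Over the whole postnatal span, P1 to 12 weeks, 6 of 6 tested genes fell, where 23.5% of all genes were called lower and 17.6% higher. Slc4a1 fell by 7.42 on the log2 scale (standard error 1.18, adjusted p = 0.00377, limma) and Alas2 fell by 2.95 (0.55, 0.00704). Hbb-bt fell by 3.27 (adjusted p = 0.00384, limma), Hba-a1 fell by 3.14 (0.0035), Hbb-bs fell by 2.66 (0.0109) and Hba-a2 fell by 2.65 (0.0046). edgeR and DESeq2 on the recovered reads also called 6 of 6. None was called when the P1 male library or the P1 library labelled female was left out, where adjusted p ran from 0.0504 to 0.128 and 1 residual degree of freedom remained.

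Over the 3 postnatal ages together, none of the 6 genes passed the test between the sexes (limma, 0 of 6), nor did any at an unadjusted p under 0.05 (0), with edgeR (0) or with DESeq2 (0), and 0.00598% of all genes passed. In the limma fit 0 genes were called higher in the male libraries, so no Y-linked gene was called either. A sex difference that changes with age goes into the residual of this fit. These counts therefore do not show that the sexes were alike. Within single ages the libraries of the sexes did differ. At P1 the male library stood at 0.972 times the one labelled female for Hba-a1 (counting interval 0.944 to 1), at 1.02 times for Slc4a1 (0.978 to 1.06), and between 0.815 and 1.44 times for the other 4. Hba-a1 and Slc4a1 did not differ beyond counting error there.

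At 2 weeks the female library exceeded the male one by 2-fold or more for 6 of 6 genes, against 3.67% of all genes. Slc4a1 was 14.2 times lower in the male library (12.2 to 16.6), and the other 5 were between 2.53 times (Hba-a2) and 3.17 times (Hbb-bt) lower. At 12 weeks the order was reversed: for 3 of 6, namely Hbb-bs, Alas2 and Slc4a1, the male library exceeded the female one by 2-fold or more, against 4.84% of all genes. Hbb-bs was 2.63 times higher (2.53 to 2.75), Alas2 2.51 times and Slc4a1 4.45 times (2.16 to 10.1), while Hba-a1, Hbb-bt and Hba-a2 were 1.94, 1.89 and 1.46 times higher. These are single pools of 6 and 4 glands, so animal-to-animal variation and sex cannot be told apart.

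**Figure D3:**
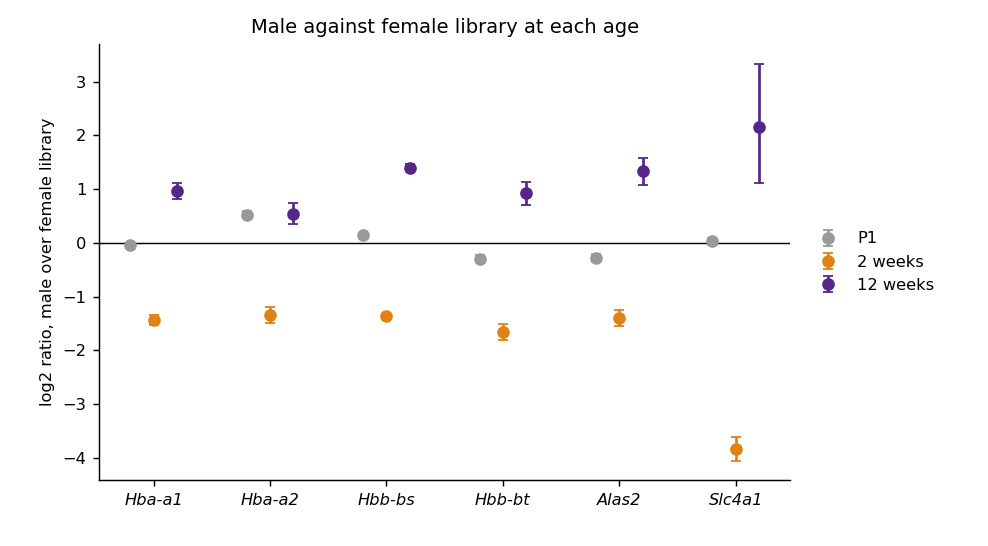
Points give the log2 ratio of the male over the female library for 6 genes at P1 (grey), 2 weeks (orange) and 12 weeks (purple), 1 library per sex and age, with exact 95% counting intervals as bars. At 2 weeks the points lie below 0, down to Slc4a1 at 14.2 times lower in the male, and at 12 weeks they lie above 0.

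Most genes of the red cell membrane and its cytoskeleton fell after P1, as the globin genes and Slc4a1 did. Of 18 such genes, 16 fell from P1 to 12 weeks, where 23.5% of all genes fell. Their median log2 difference was -3.15 against -0.03 over all genes. From 2 to 12 weeks their course differed from that of the 6 tested genes in the male libraries only. The median of the 18 was -1.01 there, against 0.40 for the 6, of which only Slc4a1 was lower. In the female libraries the medians over that step were close, at -2.33 for the 18 and -2.12 for the 6. The lists of red cell genes were drawn up with earlier results of these data known. Kel, a blood group endopeptidase, stood at 440 normalized counts at E18.5, 173 and 201 at P1, 6.23 and 109 at 2 weeks, and 0 in both 12-week libraries (adjusted p = 0.00174, limma). Rhag, the Rh-associated ammonia channel, stood at 254 and 238 at P1 and had 0 and 1 reads at 12 weeks. Epb42, a band 3 binding protein, stood at 430 and 533 at P1 and had 3 and 1 reads at 12 weeks.

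The smallest falls among the 16 were those of Aqp1, a water channel that endothelium also makes (fell by 0.73 on the log2 scale), Dmtn (fell by 1.32) and Epb41 (fell by 1.42). From P1 to 2 weeks 5 of the 18 fell (median -1.86), among them Ermap, Ank1 and Tmod1, where 10.5% of all genes fell. From 2 to 12 weeks 9 fell (median -1.92, or -1.49 with values under 3 reads raised to that floor), where 9.89% of all genes fell. For P1 to 12 weeks 8 of 18 fell without the P1 male library and 10 without the P1 library labelled female, against 16 without either 2-week library. The counts of the single steps depended on more libraries. For P1 to 2 weeks 0 of 18 fell without the P1 male, the P1 labelled female or the 2-week male library, and 14 fell without either 12-week library. For 2 to 12 weeks 1 of 18 fell without the 2-week female library, 5 without either P1 library and 14 without the 12-week male library. At 2 weeks, 9 of the 18 were 2-fold or more higher in the female, against 3.67% of all genes.

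Erythroid transcription factors fell over the same span. Of 12, 11 fell from P1 to 12 weeks (median -1.82), where 23.5% of all genes fell. Myb, which keeps precursors dividing, stood at 151 and 168 normalized counts at P1, 19.6 and 21.2 at 2 weeks, and had 1 read in each 12-week library. Nfe2, a globin gene activator, stood at 171 and 201 at P1, 11.6 and 98.8 at 2 weeks, and had 2 and 1 reads at 12 weeks. Gfi1b stood at 87.6 and 109 at P1 and had 1 and 0 reads at 12 weeks. The smallest falls were those of Ldb1 (fell by 1.0 on the log2 scale), Sox6 (fell by 1.09) and Gata2 (fell by 1.18), which other cell types use too.

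From 2 to 12 weeks 6 of the 12 factors fell, where 9.89% of all genes fell. Among them were Klf1, the activator of adult beta globin (14.2 and 112 at 2 weeks, with 2 and 4 reads at 12 weeks), and Gata1 (16 and 54.7 at 2 weeks, with 3 and 4 reads at 12 weeks). From P1 to 2 weeks only Myb fell, 1 of the 12, where 10.5% of all genes fell. It fell by 2.91 on the log2 scale (adjusted p = 0.008, limma), and edgeR called 3 of the 12. The call of Myb over that step was lost without either P1 or either 2-week library, and 8 of the 12 fell without either 12-week library. From P1 to 12 weeks 6 of the 12 fell without the P1 male library and 4 without the P1 library labelled female. From 2 to 12 weeks 1 fell without either P1 library, 3 without the 2-week male, 0 without the 2-week female and 10 without the 12-week male library.

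Heme synthesis genes outside Alas2 had no shared direction over the postnatal span. Compared with E18.5, 13 of 13 were lower in the P1 male library (median log2 difference -0.39) and 11 in the one labelled female (-0.53). The medians over all genes were 0.03 and 0.04, and these differences between single libraries were not tested. Of 13, 3 rose and 3 fell from P1 to 12 weeks, with a median of 0.08, where 17.6% of all genes rose and 23.5% fell. Without the P1 male library 1 rose and 1 fell, and without the P1 library labelled female or either 2-week library 2 rose and 2 fell. Alas1, the form of the first heme enzyme that most tissues use, rose by 2.23 on the log2 scale (standard error 0.17, adjusted p = 0.000301, limma), from 5911 and 4819 normalized counts at P1 to 24462 and 25505 at 12 weeks. Its level at E18.5 was 18260, so Alas1 too was lower at P1 and parted from Alas2 only after that. Alad rose by 0.86. Cpox fell by 1.91, Slc25a37, the mitochondrial iron importer mitoferrin-1, fell by 1.66 and Abcb10 fell by 0.56. The calls of Alas1 and Cpox held without each postnatal library in turn. That of Alad was lost without the P1 male library, that of Slc25a37 without either P1 library, and that of Abcb10 in every such fit except the one without the 12-week male library.

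Of 6 genes of erythroid receptors and iron uptake, 4 fell from P1 to 12 weeks and 1 rose (median -1.50), where 23.5% of all genes fell and 17.6% rose. Tfr2 fell by 5.51 on the log2 scale, Epor, the erythropoietin receptor, fell by 2.83 and Kit, the stem cell factor receptor, fell by 1.96. Tfrc, the transferrin receptor that dividing cells also use, rose by 1.36 from P1 to 2 weeks and fell by 2.40 from 2 to 12 weeks. Slc11a2, an iron transporter of many tissues, rose by 0.71 from P1 to 12 weeks. Tfr2 and Kit kept their calls without each postnatal library in turn, while that of Epor was lost without either P1 library. The call of Slc11a2 was lost without the P1 labelled female, either 2-week or the 12-week female library. The rise of Tfrc was lost without either P1 or either 2-week library, and its later fall was called in every such fit.

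Genes listed for the red cell cytosol, a list that also holds the gene of a nuclear protein, Hemgn, were split. Of the 11 listed, 10 were tested, and 6 fell and 2 rose from P1 to 12 weeks (median -0.87). Over that span 23.5% of all genes fell and 17.6% rose. Hemgn, a nuclear protein of erythroid precursors, stood at 556 and 741 normalized counts at P1, 27.6 and 358 at 2 weeks, and had 0 and 1 reads at 12 weeks. Car1, a carbonic anhydrase, stood at 50.7 and 79.5 at P1 and had 1 read in each 12-week library. Cat, the catalase of most tissues, rose by 0.97 on the log2 scale and Hagh rose by 0.81. Without either P1 library or without the 12-week female library 4 of the 10 fell, and the call of Hagh was lost without the P1 library labelled female. Of 10 genes of terminal maturation, 4 fell over that span (median -0.46), against the same 23.5% of all genes: Trim10, Trim58, E2f2 and Mkrn1. Trim58, which acts in the loss of the nucleus, stood at 40.9 and 33.1 at P1, 1.78 and 21.2 at 2 weeks, and 0 at 12 weeks. Without the P1 male library 1 of the 10 terminal maturation genes fell.

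**Figure D4:**
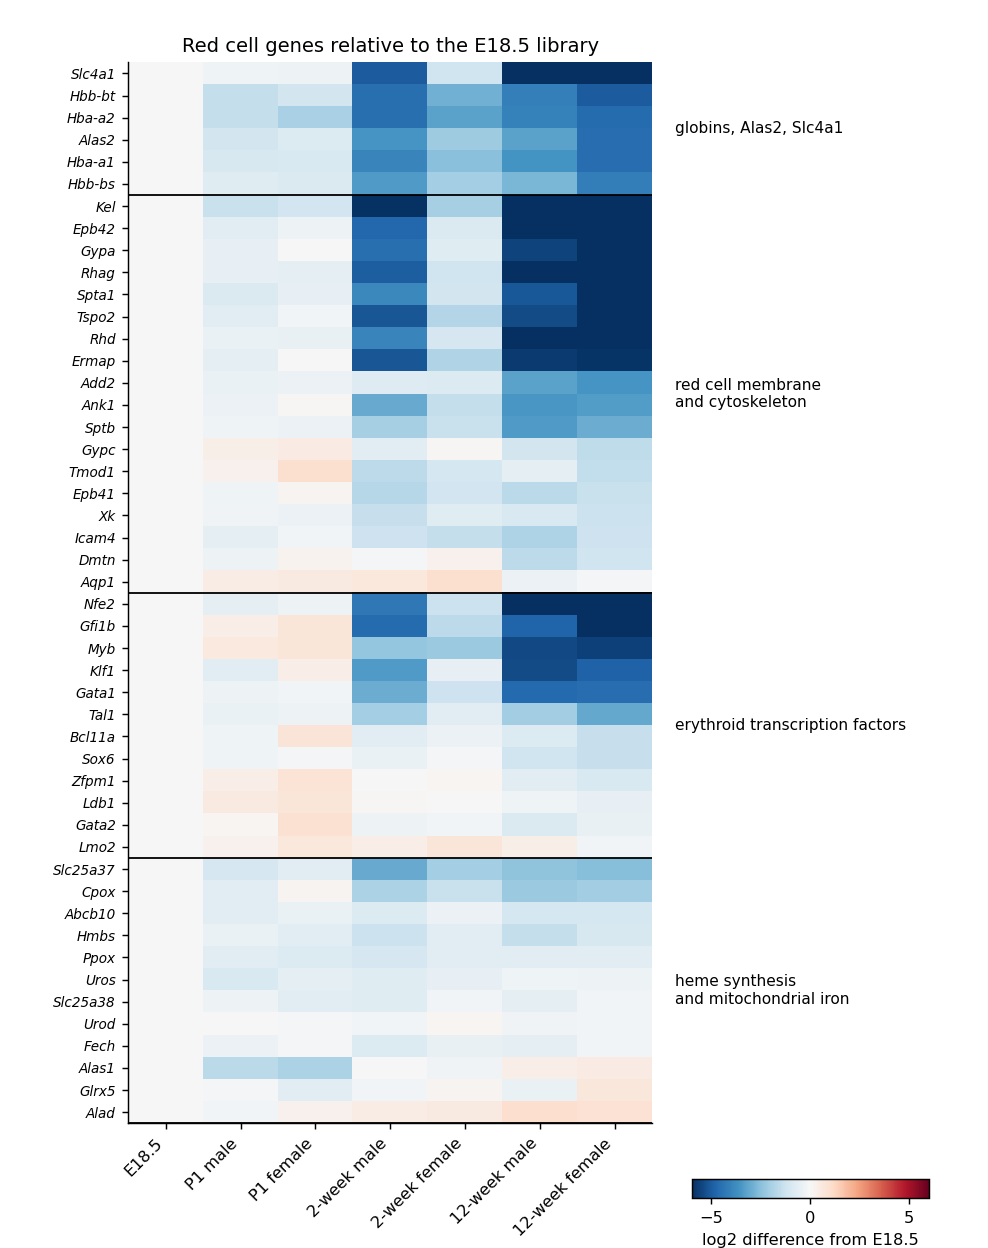
Rows are genes, grouped by list and ordered by the 12-week female library, columns are the 7 libraries, and colour is the log2(normalized count + 1) difference from E18.5, with colours saturated beyond 6 in either direction. Membrane genes and transcription factors at the top of their groups are dark blue in the 12-week libraries and in part in the 2-week male library, while heme synthesis genes such as Alas1 are near or above their E18.5 level at 12 weeks.

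The genes most like the 6 tested ones across the 7 libraries were found by Pearson's r with their mean profile, among 14926 genes with a level of at least 50 in one library. The closest were Fam46c (r = 0.990), Tmcc2 (0.988), C8b (0.985), Alx4 (0.985), Tspo2 (0.984), Ackr2 (0.982), Gmeb1 (0.981), Rgn (0.980), C8g (0.980) and Etaa1 (0.979). Tspo2 is an erythroid gene, whereas C8b and C8g encode complement subunits made in liver. C8b stood at 758 normalized counts at E18.5, 547 and 416 at P1, 16.9 and 50.3 at 2 weeks, and 8.39 and 2.26 at 12 weeks. The least alike were Lcorl (-0.988), Ambra1 (-0.983), Il17rc (-0.982), Immp2l (-0.979) and Tpst1 (-0.976). With 7 libraries that share an age trend, 129 genes had r above 0.95, so likeness here describes a shared course only. Within the 6 genes, r ran from 0.853 (Hba-a2 with Slc4a1) to 0.998 (Hba-a1 with Hbb-bt).

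Marker sums of some other cell types were also lower at 2 and 12 weeks than at P1. From E18.5 to P1 the medians of these markers differed from those of the 6 tested genes. Over that step the 6 tested genes had median log2 differences of -1.02 (P1 male) and -0.88 (P1 labelled female). The medians were 0.33 and -0.54 for neutrophil, 0.33 and -0.15 for hepatocyte and 1.04 and 1.88 for skeletal muscle markers. For megakaryocyte and platelet markers they were 0.57 and 0.07, and for B cell markers 1.21 and 0.96. Other lists of red cell genes did not share the medians of the 6 genes either. For heme synthesis, membrane, transcription factor, receptor, cytosol and terminal maturation genes they ran from -0.39 to 0.14 and from -0.53 to 0.66. Adrenal cortex markers were lower at P1 as well, at -0.48 and -0.67. The 10 neutrophil markers summed to 4235 normalized counts at E18.5, 5265 and 3148 at P1, 48.9 and 2342 at 2 weeks, and 71.3 and 56.6 at 12 weeks. Of the 10, 9 fell from P1 to 12 weeks, where 23.5% of all genes fell. That count was 2 without the P1 male library, 4 without the P1 library labelled female and 9 or 10 without any 1 of the others. Camp and Mpo were at 0 reads in the 2-week male library, while Camp stood at 122 in the 2-week female library, and Ngp and Elane were at 0 reads in both 12-week libraries. The neutrophil sum thus took the same order as Slc4a1 between the 2-week libraries.

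The 9 hepatocyte markers, led by Alb, summed to 320328 at E18.5, 405723 and 279057 at P1, 13459 and 35110 at 2 weeks, and 492 and 445 at 12 weeks. From P1 to 12 weeks 9 of 9 fell, where 23.5% of all genes fell. The 7 skeletal muscle markers summed to 41161 at E18.5, 82485 and 148862 at P1, 302 and 5803 at 2 weeks, and 127 and 97.3 at 12 weeks, and 7 of 7 fell. Both counts held without each library in turn, except that 6 of 7 muscle markers fell without the P1 male library. No marker of these lists was at 0 reads before 2 weeks. The 8 megakaryocyte and platelet markers summed to 495 to 860 up to P1 and to 96.5 to 139 later, and 4 of the 4 tested fell, or 1 without the P1 male and 2 without the 12-week male library. The 6 B cell markers summed to 100 to 223 up to P1 and to 39.1 to 77.6 later, and 3 of the 4 tested fell, or 1 without the P1 male, the P1 labelled female, the 2-week male or the 12-week male library.

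Other lists did not share that course. The 6 endothelial markers summed to between 16488 and 21473 in every library. From P1 to 12 weeks 2 rose and 1 fell, where 17.6% of all genes rose and 23.5% fell, and 0 rose without either P1 library. The 8 tissue macrophage markers summed to 5095 at E18.5, 7047 and 8002 at P1, 3084 and 3199 at 2 weeks, and 8024 and 6510 at 12 weeks. The 6 brown fat markers summed to 2915 to 3065 up to P1, 44516 and 49301 at 2 weeks, and 31738 and 26342 at 12 weeks. The part of neutrophil, liver, muscle, platelet and B cell RNA in the changes of the globin genes, Alas2 and Slc4a1 was not tested.

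**Figure D5:**
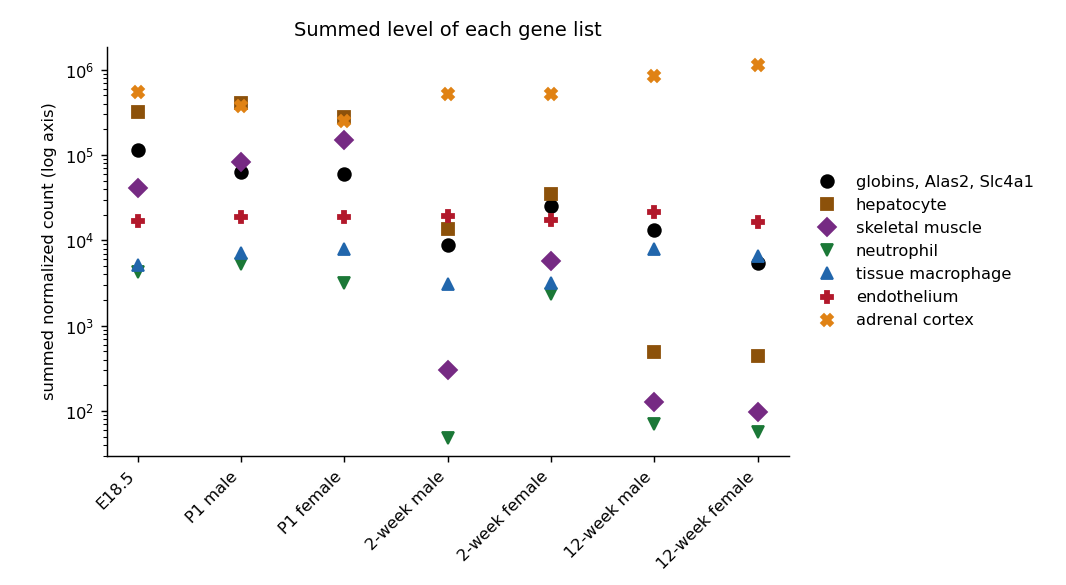
Points give the summed normalized count (log axis) of the 9 globin and red cell genes and of 6 marker lists in each library. Hepatocyte, skeletal muscle and neutrophil sums drop after P1 and are higher in the 2-week female than the 2-week male library, as the red cell genes are, while endothelial markers stay between 16488 and 21473.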

How the data were processed

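The authors deposited 1 table of normalized counts, a signal that is each gene's read count divided by a size factor. CASAVA 1.8.2, HISAT2 2.1.0, HTSeq 0.9.1, DESeq2 2.11.40.6 and mm10 are named, with no role, in the submitters' processing notes. Of the values, 100.0% were whole reads within 0.01 reads of a whole number, so reads were recovered. For the 16720 genes with a mean of 10 or more, limma 3.58.1 (R 4.3.3) (lmFit, then eBayes trended on mean level) gave two-sided tests at an adjusted p of 0.05 (Benjamini-Hochberg) on log2(normalized count + 1), a scale that understates changes of low genes. The 6 postnatal libraries entered 1 fit with age and sex, leaving 2 residual degrees of freedom. The limma fit was also run on simulated counts, with 1 fixed dispersion for all genes and no sex difference that changed with age. That setting differs from these data, so the run does not show how the fit performs here.

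On the recovered reads edgeR 4.0.16 called 2795, 2396 and 6754 genes in the 3 age steps, and DESeq2 1.42.0 was also run. Single libraries were compared by ratios with exact 95% counting intervals and a floor of 3 reads. List medians at that floor and list counts and calls without single libraries were added after the data were seen. The members and lists were chosen with earlier results of these data known. Genes named are the 9 members, up to 3 highest and 3 lowest past the test per list, and the 10 most and 5 least alike, except that some list genes are not reported here. Sequences are from RefSeq and GENCODE for GRCm38.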

Additional observations from a re-analysis of the deposited data

Results flagged for a closer look

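Several red cell genes had a difference between the male and the female library that changed sign with age. From 2 weeks to 12 weeks the male-minus-female log2 difference was higher by 2.39 for Hba-a1 (from -1.44 to 0.96), by 1.89 for Hba-a2, by 2.76 for Hbb-bs, by 2.58 for Hbb-bt, by 2.72 for Alas2 and by 5.88 for Slc4a1 (from -3.82 to 2.06). From P1 to 2 weeks it changed by -1.86 for Hba-a2 and by -1.49 for Hbb-bs. For Slc4a1 it went from 0.03 at P1, within counting error, to -3.82 at 2 weeks. From P1 to 12 weeks it changed by 1.21 for Hbb-bt and by 1.61 for Alas2. With 1 library per sex and age these differences were not tested. The P1 differences also rest on the P1 library labelled female, in which Y-linked genes were detected.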

How the results depend on the processing

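No paired analysis was possible because each group is 1 library and the labels carry no replicate numbers. Without a filter on low values, limma called 0 genes for P1 to 2 weeks, 0 for 2 to 12 weeks and 0 between the sexes, and 0 of the 6 tested red cell genes for P1 to 12 weeks. Without a trend it called 1672, 1661 and 0 genes in the first 3 of these, against 2737, 2557 and 1 as reported, and 0 red cell genes in both age steps. Between the sexes edgeR called 0 genes and DESeq2 9. From 2 to 12 weeks 0 red cell genes were called with edgeR or with a pseudocount of 0.1. The causes were not tested.

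Leaving out 1 library, which leaves 1 residual degree of freedom, gave 2 to 4461 genes for P1 to 2 weeks, 421 to 3035 for 2 to 12 weeks, 3207 to 6271 for P1 to 12 weeks and 0 to 51 between the sexes. Red cell genes called ranged from 0 to 6, from 0 to 5 and from 0 to 6 in the 3 age steps. For P1 to 12 weeks, the log2 differences of the red cell genes kept their sign in all 96 alternatives, and 18 lost the call. From 2 to 12 weeks they ranged from -1.79 to 0.10 for Hba-a1, -1.40 to 0.47 for Hba-a2, -1.80 to 0.33 for Hbb-bs, -1.82 to 0.15 for Hbb-bt and -2.12 to 0.04 for Alas2, and turned above 0 without the 2-week female or the 12-week female library (Alas2 only without the latter). The sex differences ranged from -0.74 to 0.46 (Hba-a1), -0.41 to 0.53 (Hba-a2), -0.61 to 0.76 (Hbb-bs), -0.98 to 0.31 (Hbb-bt), -0.84 to 0.52 (Alas2) and -1.89 to 1.04 (Slc4a1). Scaling to equal totals moved the median of all genes by -0.17 from 2 to 12 weeks, with 647 genes higher and 2515 lower against 903 and 1654 as reported, and by -0.12 from P1 to 12 weeks. Under that scaling Hba-a1 at P1 was 0.04 higher in the male library, the opposite sign to the reported -0.04.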

Other observations

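Of 11 genes that clear heme and hemoglobin, 4 fell from P1 to 2 weeks, where 10.5% of all genes fell: Hmox1, the heme oxygenase that opens the heme ring (fell by 3.34 on the log2 scale, adjusted p = 0.00916, limma), Hp, the hemoglobin-binding plasma protein haptoglobin (fell by 2.84), Cd163, its macrophage receptor (fell by 1.57), and Slc40a1, the iron exporter ferroportin (fell by 1.44). From 2 to 12 weeks 4 rose and 2 fell, where 5.4% of all genes rose and 9.89% fell. Hmox1 rose by 3.0, the ferritin genes Ftl1 and Fth1 by 1.42 and 1.02 and the heme transporter gene Slc48a1 by 0.91, while Hpx, the heme-binding plasma protein, and Cd163 fell. Hmox1 stood at 651 normalized counts at E18.5, 2142 and 796 at P1, 117 and 141 at 2 weeks, and 2141 and 496 at 12 weeks, so at P1 and 12 weeks the male library was the higher. These counts depended on single libraries. From P1 to 2 weeks 0 fell without either P1 library, 1 without the 2-week male and 7 without either 12-week library. From 2 to 12 weeks 2 rose and 0 fell without either P1 library, 1 rose and 1 fell without the 2-week male library, and 1 rose and 0 fell without the 2-week female library. Of the 8 tissue macrophage markers, 6 fell over the first step and 6 rose over the second. Without either P1 or the 2-week male library 0 fell over the first. Cd163 fell from 2 to 12 weeks while the 8 tissue macrophage markers summed to 8024 and 6510 at 12 weeks, against 3084 and 3199 at 2 weeks.

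Of the globin genes outside the blood hemoglobins, Mb, the myoglobin of muscle, stood at 42 normalized counts at E18.5, 58.1 and 235 at P1, 42.7 and 240 at 2 weeks, and had 2 and 1 reads at 12 weeks. Skeletal muscle markers summed to 302 and 5803 in the 2-week male and female libraries. Cygb, the cytoglobin of fibroblast-like cells, stood at 338 at E18.5, 637 and 945 at P1, 1086 and 1060 at 2 weeks, and 1167 and 982 at 12 weeks, and did not pass the test from P1 to 12 weeks. Ngb, the globin of neurons, rose by 1.51 from P1 to 12 weeks (adjusted p = 0.0412, limma) at levels of 7.73 to 33.9. That call was lost without either P1, either 2-week or the 12-week female library, with adjusted p from 0.029 to 0.269 (limma) over the 6 fits that each left out 1 library. Hbq1b, the theta globin gene, stood at 47.9 at E18.5, 27.8 and 24.3 at P1, 2.67 and 15.9 at 2 weeks, and had 0 reads in both 12-week libraries.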
